A study of Mus musculus with 22 samples.

Results

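The nuclear-encoded subunits of the mitochondrial respiratory chain were examined in bulk RNA-seq and ATAC-seq of sorted mouse dendritic cells (DCs). Members were the genes of the count table whose symbols start as those of complex I (Nduf a, b, c, s or v), complex II (Sdha to Sdhd), complex III (Uqcr), complex IV (Cox4 to Cox8) or complex V (Atp5), with at least 10 counts in at least 2 of the 16 RNA-seq libraries. Of 34047 genes, 88 had such a symbol and 81 passed the count rule. Complex I gave 35 members, complex II 4, complex III 8, complex IV 15 and complex V 15, with Ndufa4 placed in complex IV, where its protein resides. The other 4 matched by name alone: Atp5s and Atp5sl, which encode assembly-related proteins rather than ATP synthase subunits, and the pseudogenes Atp5k-ps2 and Atp5l2-ps.

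All cells came from untreated Tbx21RFP-cre mice, a knock-in line that reports the transcription factor T-bet as RFP, of both sexes and 6 to 10 weeks old. The subsets were cDC1s (XCR1+ CD11b-), T-bet+ cDC2s (XCR1- CD11b+ RFP+) and T-bet- cDC2s (XCR1- CD11b+ RFP-), and the cells of 2 mice were pooled per RNA library. RNA-seq covered each subset in spleen (3 libraries each) and in mesenteric lymph node (MLN; 3 cDC1 libraries and 2 of each cDC2 subset), and ATAC-seq covered spleen with 2 libraries per subset. Every group carried the reporter allele, so its own effect cannot be told apart from the baseline.

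The respiratory chain passes electrons from NADH and succinate through complexes I to IV to oxygen, pumping protons across the inner mitochondrial membrane, and complex V, the ATP synthase, uses the proton gradient to make ATP. Most subunits are nuclear genes, while a small core is encoded by mitochondrial DNA, so that a complete chain needs both genomes. Resting DCs respire, and activated DCs are known to shift toward glycolysis.

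RNA libraries held 20993220 to 29006549 counts on genes, and ATAC libraries 7270164 to 10081555 counts in summit windows. Xcr1 and spleen Tbx21 followed the labels: Xcr1 was at 806 to 1163 CPM (counts scaled to library size, TMM-normalized) in spleen cDC1 and at most 12.81 in spleen cDC2s, at 444.9 to 1219 in MLN cDC1 and at most 34.01 in MLN cDC2s, and Tbx21 was at 17.19 to 24.86 CPM in spleen T-bet+ cDC2 against 0.289 to 2.379 in spleen T-bet- cDC2. In spleen, 4 of 5 cDC1 markers were called lower and 4 of 4 cDC2 markers higher in each cDC2 subset than in cDC1. Yet the cDC1 markers Clec9a (log2 fold change -5.55), Irf8 (-2.17) and Cd8a (-1.96) were called lower in T-bet+ than T-bet- spleen cDC2. Clec12a, a T-bet- cDC2 marker, was lower in spleen T-bet+ cDC2 than in cDC1 (-4.855). Between MLN cDC2 subsets no marker was called, with a median log2 fold change of 2.96 for Tbx21 and Dtx1. The libraries differed in a way that the groups did not explain. Each library's deviation from the mean of all was correlated, over genes, with the GC content of the most GC-rich 100-base window of each transcript. The coefficient was above 0.1 in 6 spleen libraries (all 3 T-bet+ cDC2, T-bet- cDC2 replicate 3, and cDC1 replicates 1 and 2) and between -0.44 and 0.04 in the other 3 spleen and all 7 MLN libraries. The first 6 are called higher-class and the rest lower-class libraries here. Class and subset were therefore partly mixed in spleen, and for T-bet+ cDC2s class and tissue cannot be told apart.

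Subunit transcripts were abundant. Over 80 members with an annotated length, the median level was 62.02 CPM per kilobase of exon, against 3.225 over 13312 genes, and all members together took 0.8266% to 1.307% of a library's counts. On this per-length scale the highest were Cox6a1 (348.6 CPM per kilobase), Cox4i1 (285.2), the ATP synthase beta subunit Atp5b (272.3) and the alpha subunit Atp5a1 (269.7). Complex I was led by Ndufa2 (143.1) and Ndufa1 (128.2) and closed by Ndufb5 (10.35) and Ndufb2 (5.419). In complex II, Sdhd (134.8) and the flavoprotein Sdha (98.3) stood above the iron-sulfur protein Sdhb (87.42) and Sdhc (21.96). In complex III, Uqcr10 (148.7) and Uqcrb (88.17) stood above the Rieske protein Uqcrfs1 (64.16) and Uqcrq (48.35). Atp5g1 (12.57) and Atp5l (8.225) were lowest in complex V. The length counts every annotated exon of a gene, so this order depends on the annotation. Atp5l has 6443 exon bases, while its longest protein-coding transcript has 544. In spleen cDC1 it had a mean of 49.67 CPM, above Atp5k at 25.12 CPM, yet per length Atp5k (41.47) stood higher.

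The level of a subunit varied little between groups. For the 77 members with a mean of at least 1 CPM, the highest of the 6 group means was a median of 1.6 times the lowest, and for 65 it was less than 2 times. The highest mean was in a spleen group for 73 of them, and Cox6b2 had the widest range, from 0.964 CPM in MLN cDC1 to 8.561 CPM in spleen T-bet- cDC2.

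Where a subunit has alternative genes or isoforms, a single one gave most of the signal. Atp5g3 gave 73.28% ± 3.723 (SD, n = 16 libraries) of the per-length signal of the 3 genes for the ATP synthase c subunit, Atp5g2 17.34% ± 3.182 and Atp5g1 9.383% ± 1.12. These shares rest on annotated exon lengths of 2181, 1675 and 4912 bases. Without division by length, Atp5g1 stood above Atp5g2 in every group mean. The heart and muscle isoforms Cox6a2 (0.3584 CPM per kilobase) and Cox7a1 (0.59) were the lowest of complex IV, and Cox6a2 was the member closest to the count limit, with 10 or more counts in 2 libraries. Just outside the limit were Uqcrh-ps1, with 10 counts in 1 library, and Atp5l-ps1, Atp5l-ps2, the lung isoform Cox4i2, the testis isoforms Cox7b2 and Cox8c, and Ndufa4l2, each with at most 4 counts in any library. Exons of 24 of 80 members overlap those of a gene on the other strand, and whether counting used strand is not given in the sources used here, so that reads of such pairs cannot be told apart. Cox6b2 and Atp5sl are not among them.

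**Figure D1:**
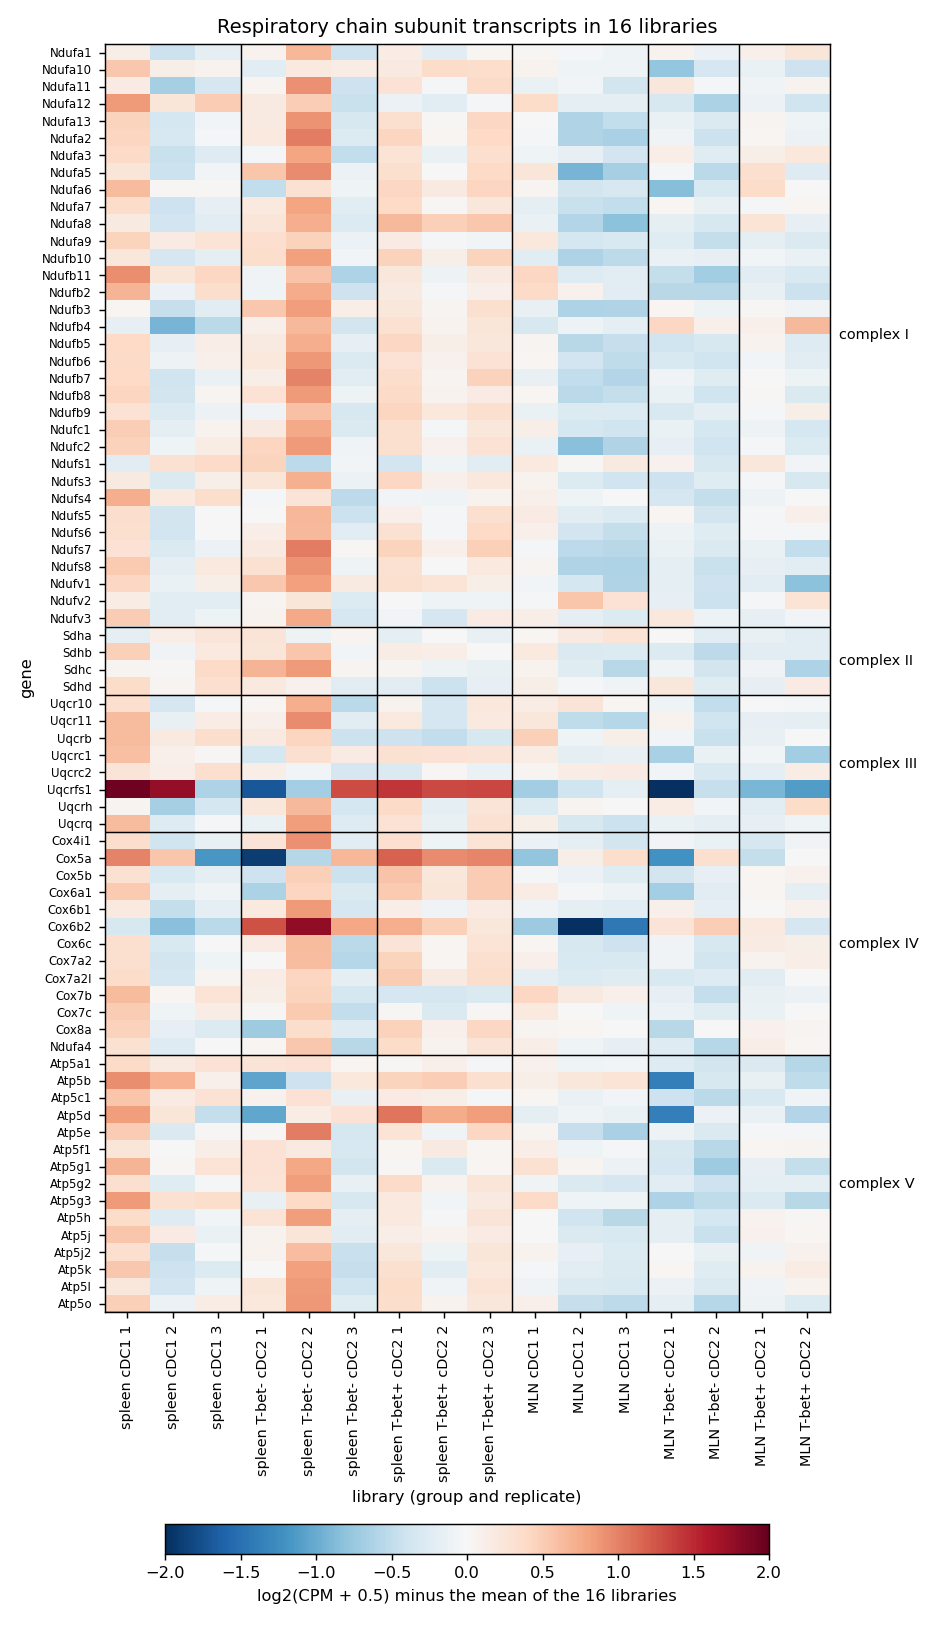
Heat map of 74 member genes, grouped by complex (rows), over the 16 RNA-seq libraries (columns); the colour gives each library's log2 CPM minus the gene's mean over all libraries. Columns differ from each other within a group as well as between groups, and a few rows, such as Uqcrfs1 and Cox5a, vary far more than the rest.

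The first question was whether cDC2s and cDC1s differ in respiratory chain transcripts. In spleen, 2 members were higher in both cDC2 subsets than in cDC1s, and none was lower: Cox6b2, the testis-enriched isoform of cytochrome c oxidase subunit VIb, and Atp5sl, also known as Dmac2, a factor for assembly of the complex I membrane arm. Of the 78 members tested, the 2 called in T-bet+ cDC2 against cDC1 compare with 18.2% of all genes tested, and the 2 called in T-bet- cDC2 against cDC1 with 15.9%. Both comparisons share the 3 spleen cDC1 libraries. With offsets for GC content and length most calls were of lower members, at 4 higher and 7 lower in T-bet+ cDC2. In T-bet- cDC2 they were 2 higher and 5 lower. With offsets for the GC-rich window described above they were 5 higher and 8 lower in T-bet+ and 2 higher and 11 lower in T-bet- cDC2. The shares of all genes called with these offsets are not given here, so no direction particular to the members can be read from these counts.

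Cox6b2 was at 2.39, 1.523 and 1.983 CPM in the spleen cDC1 libraries, at 8.237, 11.82 and 5.627 CPM in T-bet- cDC2 and at 5.467, 4.5 and 3.696 CPM in T-bet+ cDC2. The 3 groups did not overlap, with T-bet- cDC2 highest and cDC1 lowest. In T-bet- cDC2 the log2 fold change over cDC1 was 2.12 (SE 0.38, 95% interval 1.27 to 2.97, edgeR quasi-likelihood adjusted p = 0.0045). That call was lost in 1 of 22 alternatives, with higher-class libraries alone (1.53), which keep only replicate 3 of T-bet- cDC2. In T-bet+ cDC2 the log2 fold change over cDC1 was 1.21 (SE 0.37, edgeR adjusted p = 0.0497), a call that was lost in 15 of 22 alternative analyses, where the adjusted p ran from 0.0267 to 0.187. The difference between the cDC2 subsets, -0.91 (SE 0.36), did not pass (edgeR adjusted p = 0.218).

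In MLN the order was the same. Cox6b2 was at 1.664, 0.3903 and 0.8376 CPM in cDC1, at 3.801 and 4.554 CPM in T-bet- cDC2 and at 3.613 and 2.352 CPM in T-bet+ cDC2, again without overlap. The log2 fold changes over cDC1 were 2.15 (SE 0.615, edgeR adjusted p = 0.0901) and 1.63 (SE 0.615, edgeR adjusted p = 0.17), which did not pass. The T-bet- difference passed in 4 of 17 alternatives, among them DESeq2 (adjusted p = 0.0199). Its partner isoform Cox6b1, the ubiquitous one, lay between 128.4 and 324.9 CPM in every group. Its groups overlapped in spleen, while in MLN both T-bet+ cDC2 libraries (178.9 and 190.5 CPM) stood above the 3 cDC1 libraries (155.4 to 171.5 CPM). Per length, Cox6b2 gave 0.766% ± 0.033 of subunit VIb signal in spleen cDC1, 1.52% ± 0.32 in T-bet+ cDC2 and 2.42% ± 0.13 in T-bet- cDC2 (SD, n = 3 each), so that it was a minor isoform throughout. In such sorted pools, fewer cells that express a gene and less of its RNA per cell cannot be told apart. The sort had removed cells with Ly6C or CD64. Of 6 monocyte and macrophage markers, Adgre1 (F4/80) was at 335.8 to 551.8 CPM in spleen cDC2s and 6.297 to 11.58 CPM in spleen cDC1, and it carried most of a summed level of 380.3 to 738.5 CPM against 82.89 to 166.9. The others did not all go that way: in spleen T-bet+ cDC2, Ly6c2 (log2 fold change -1.47) and Vcam1 (-1.69) were called lower than in cDC1, and the list's median was -1.47. In T-bet- cDC2 the list's median was 2.50. The part of these markers in the Cox6b2 difference was not tested.

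**Figure D2:**
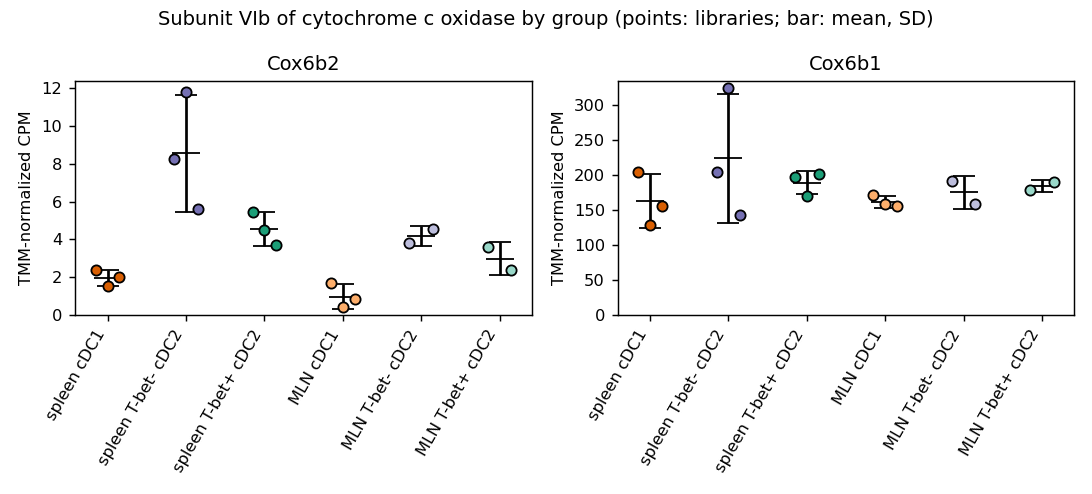
TMM-normalized CPM of Cox6b2 (left) and Cox6b1 (right) in the 6 groups; points are libraries, and bars give the mean and SD. Cox6b2 is lowest in cDC1 and highest in T-bet- cDC2 in both tissues, while the Cox6b1 groups overlap in spleen and, in MLN, T-bet+ cDC2 lies above cDC1.

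Atp5sl was at 18.47, 16.17 and 19.34 CPM in spleen cDC1, at 39.98, 46.06 and 31.01 CPM in T-bet- cDC2 and at 37.44, 41.03 and 46.8 CPM in T-bet+ cDC2. Both cDC2 subsets stood above every cDC1 library and overlapped each other. The log2 fold change over cDC1 was 1.22 (SE 0.23, edgeR adjusted p = 0.00534) in T-bet+ cDC2, a call kept in all 22 alternatives. In T-bet- cDC2 it was 1.12 (SE 0.23, edgeR adjusted p = 0.00944). That call was lost in 1 of 22, with higher-class libraries alone, which keep only replicate 3 of T-bet- cDC2. The MLN libraries did not overlap either, at 22.69 to 24.75 CPM in cDC1 and 30.5 to 40.01 CPM in cDC2s, but with log2 fold changes of 0.59 and 0.61 neither comparison passed (edgeR adjusted p = 0.21 and 0.22).

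No other member was called between spleen cDC2s and cDC1s, and differences went both ways. The lowest log2 fold changes were -0.82 in T-bet+ and -1.22 in T-bet- cDC2. The median log2 fold change over cDC1 was 0.11 for T-bet+ cDC2 (0.03 over all genes) and 0.13 for T-bet- cDC2 (-0.01 over all genes) in spleen. By complex, the T-bet+ medians were 0.15 for complex I, -0.2 for II, -0.02 for III, 0.29 for IV and 0.03 for V. Nearest to the threshold was Uqcrb, a small complex III subunit, at 117, 85.24 and 96 CPM in spleen cDC1 and 55.98, 53.1 and 59.84 CPM in T-bet+ cDC2, with no overlap (log2 fold change -0.82, SE 0.25, edgeR adjusted p = 0.0517). The Uqcrb difference passed in 10 of 22 alternatives. Atp5b was at 2035, 1728 and 1146 CPM in spleen cDC1 and 513.6, 800.1 and 1238 CPM in T-bet- cDC2, which overlapped (log2 fold change -0.94, SE 0.31, edgeR adjusted p = 0.0739). The Atp5b difference passed in 6 of 22 alternatives.

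In MLN no member was called in either comparison with cDC1, against 6.22% of genes for T-bet+ cDC2 and 5.79% for T-bet- cDC2, and 3 members in each had an unadjusted p below 0.05 (3.85%, against 22.2% and 19.6% of genes). DESeq2 called 1 member, Cox6b2, in T-bet- cDC2 and none in T-bet+ cDC2. With the number in the library name as a block, edgeR called Cox6b2 and Atp5b in T-bet- cDC2. The member medians were 0.07 and 0.01. The 95% interval lay within 1 log2 unit of no change for 60 and 59 of 78 members and reached beyond it for the others.

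The second question was whether T-bet+ and T-bet- cDC2s differ. No member was called in spleen, by edgeR (5.38% of genes called) or by DESeq2, and 4 members had an unadjusted p below 0.05 by edgeR (5.13%, against 18.5% of genes). Atp5d, the delta subunit of the ATP synthase head, was at 354.7, 282 and 300.8 CPM in T-bet+ cDC2 and 81.74, 187.6 and 206.5 CPM in T-bet- cDC2 (log2 fold change 0.98, SE 0.39, edgeR adjusted p = 0.216). The catalytic subunit Atp5b was at 1461, 1512 and 1339 CPM against 513.6, 800.1 and 1238 CPM (0.76, SE 0.31, edgeR adjusted p = 0.228). Neither pair of groups overlapped, and of the spleen libraries both genes were lowest in T-bet- cDC2 replicate 1. Sdhc, a membrane anchor of complex II, was at 71.87, 64.2 and 61.83 CPM against 110.4, 125.2 and 71.53 CPM, which overlapped (-0.63, SE 0.24, edgeR adjusted p = 0.2).

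Several subunits named from their roles were close in the spleen cDC2 subsets. The complex I subunit Ndufs1 was at 71.68 ± 7.49 CPM in T-bet+ and 84.66 ± 28.17 CPM in T-bet- cDC2 (SD, n = 3). Sdha was at 374.7 ± 27.2 and 425.1 ± 54.53 CPM, Uqcrc2 at 162 ± 18.09 and 167.6 ± 27.02 CPM, and Cox4i1 at 490.1 ± 74.05 and 563.3 ± 226.1 CPM. Each of these differences was within the spread between libraries. Uqcrfs1 and Cox5a had larger differences, without overlap between the groups, which did not pass (log2 fold change 1.2, SE 0.77, edgeR adjusted p = 0.459, and 1.29, SE 0.64, edgeR adjusted p = 0.324), and their libraries are described below. The member median was -0.09, with -0.09 for complex I, -0.24 for II, -0.07 for III, 0.17 for IV and -0.09 for V. This median was -0.35 without T-bet- cDC2 replicate 3 and 0.41 among higher-class libraries alone, where that replicate was the only T-bet- library. Its direction thus rested on which T-bet- libraries were used. Without that replicate, Sdhc and Uqcrb were called lower in T-bet+ cDC2.

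In MLN no member was called between the cDC2 subsets, by edgeR or by DESeq2, and 1 had an unadjusted p below 0.05, the complex I subunit Ndufa6, at 71.36 and 55.03 CPM in T-bet+ and 30.31 and 44.7 CPM in T-bet- cDC2 (log2 fold change 0.72, SE 0.30, edgeR adjusted p = 0.514). With 2 libraries a group, the groups did not overlap for 31 of 78 members (39.7%), against 40.9% of all genes tested. Across all genes edgeR called 0% there, although 1444 had an unadjusted p below 0.05, and DESeq2, which also called no member, called 328 genes. The member median was 0.13. The test of whether the subset difference itself differed between spleen and MLN called no member, by edgeR or by DESeq2, with none below an unadjusted p of 0.05 by edgeR, and 0.00595% of all genes were called.

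**Figure D3:**
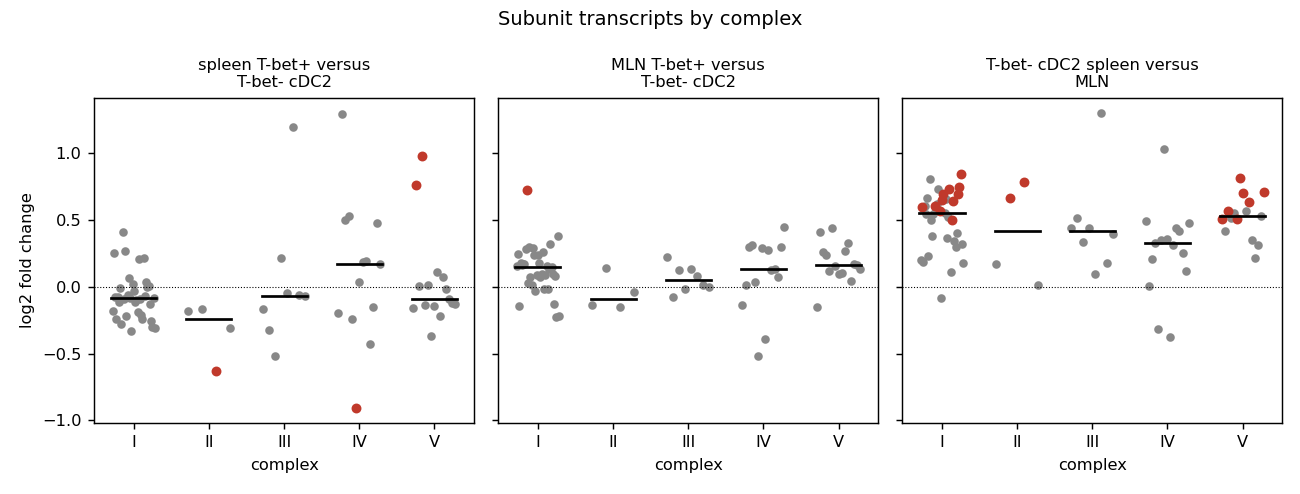
Log2 fold change of each member (points) by complex in 3 comparisons; horizontal lines are medians, and red points have an unadjusted p below 0.05, none of which passed after adjustment over all genes. The medians lie near 0 between cDC2 subsets and above 0 in all complexes for T-bet- cDC2 in spleen against MLN.

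The third question was whether the same subset differs between tissues. No member was called, against 11.7% of genes for cDC1, 5.09% for T-bet+ cDC2 and 5.95% for T-bet- cDC2. Point estimates were mostly higher in spleen, for 70, 69 and 77 of 81 members, with medians of 0.26, 0.26 and 0.50 (-0.01, 0 and 0.04 over all genes). Unadjusted p was below 0.05 for 5, 7 and 21 members by edgeR (6.17%, 8.64% and 25.9%), against 30.4%, 26.6% and 24.5% of all genes. DESeq2 called 2, 2 and 4 members and 3513, 2704 and 2243 genes in all. In T-bet- cDC2 the medians were 0.55 for complex I, 0.42 for II, 0.42 for III, 0.33 for IV and 0.53 for V.

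The smallest adjusted p for a higher level in spleen T-bet- cDC2 was that of Ndufv1, the NADH-binding subunit of complex I, at 143.8, 175.6 and 112.2 CPM against 86.24 and 74.32 CPM in MLN (log2 fold change 0.84, SE 0.27, edgeR adjusted p = 0.0827). The groups did not overlap. Atp5s went the other way, at 4.432, 4.112 and 4.041 CPM in spleen and 7.871 and 9.529 CPM in MLN T-bet- cDC2 (-1.05, SE 0.36, edgeR adjusted p = 0.0988).

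The medians depended on the libraries and the fit. That of T-bet- cDC2 fell to 0.01 when only higher-class spleen libraries, here replicate 3 alone, were kept. The cDC1 median was 0.05 with offsets for GC content and length. With library class as a term in the fit, the T-bet+ median was 0.02 (class by whole-transcript GC) or 0.51 (by the GC-rich window). Members had short transcripts, with a median of 870 bases against 3069 over 13312 genes. Each library's deviation was correlated with transcript length at 0.06 to 0.26 in MLN and -0.37 to 0.19 in spleen. Several other measures moved with tissue. Spleen T-bet- cDC2 replicate 2 had a member median 0.64 above the mean of all libraries, beside 0.98 for cytosolic ribosomal protein genes. These ribosomal genes were higher in spleen T-bet- cDC2 as well, with 13 of 80 called and a median of 0.93. Summed red cell markers were at 3.434 to 11.84 CPM in spleen and at most 0.3764 CPM in MLN, and summed neutrophil markers at 17.21 to 56.81 CPM and at most 3.469 CPM, although the sort took cells with CD11c and MHC class II and without Ly6C, and the defining neutrophil marker Ly6g was at most 0.4568 CPM. Summed T cell markers went the other way, at 0.3869 to 2.409 CPM in spleen and 2.475 to 9.949 CPM in MLN, although cells with CD3 or CD90 had been removed. The part of these differences in the subunit values was not tested.

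The members that varied most did so within groups. Uqcrfs1, the Rieske iron-sulfur protein that accepts electrons from ubiquinol, was at 233.1, 204.8 and 39.17 CPM in spleen cDC1, 18.3, 37.32 and 148.9 CPM in T-bet- cDC2 and 163.9, 151.8 and 152.4 CPM in T-bet+ cDC2, and between 11.57 and 52.62 CPM in all MLN libraries. Within spleen cDC1 and spleen T-bet- cDC2, its high and low values divided by library class. The 6 higher-class libraries held 148.9 CPM or more and the other 10 held 52.62 CPM or less. All MLN libraries were lower-class, so class and tissue cannot be told apart for their values. Cox5a, a complex IV subunit, split the same way in spleen, at 119.3 to 183 CPM in higher-class and 21.39 to 54.43 CPM in lower-class libraries.

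The within-group SD on the log2 scale was 1.03 for Uqcrfs1 and 0.888 for Cox5a, against a median of 0.313 over members and 0.418 over all genes. Between higher- and lower-class libraries of the same group, Uqcrfs1 differed by 2.46 log2 units in spleen cDC1 and 2.49 in spleen T-bet- cDC2, and Cox5a by 1.94 and 1.89. Atp5d and Atp5b differed by 1.01 and 0.71 in cDC1 and by 0.73 and 0.95 in T-bet- cDC2. Class was itself set by window GC content over all genes, so that a relation of these differences to it is no separate result. Atp5a1 had a window of 81% GC and the smallest within-group SD, 0.11. With class as a term in the fit, estimated from the groups that hold both classes, the spleen minus MLN difference of Uqcrfs1 in T-bet+ cDC2 went from 2.40 to -0.05. In T-bet+ cDC2 class and tissue cannot be told apart, so the second value rests on the class difference of other groups. Its cause was not tested.

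The coding sequence near the start of these genes is shown because class was set by such windows. Each stretch is the most GC-rich 100 bases of the coding sequence, from GENCODE M21 on GRCm38, with runs of at least 6 G or C in capitals. Uqcrfs1 holds 81% G or C with 7 such runs (chr13:30545137-30545236, minus strand), Atp5d 77% with 6 runs (chr10:80142471-80142570, plus strand), and Cox6c, a complex IV subunit shown for contrast, 61% with 0 runs (chr15:35937165-35937264, minus strand).
Uqcrfs1: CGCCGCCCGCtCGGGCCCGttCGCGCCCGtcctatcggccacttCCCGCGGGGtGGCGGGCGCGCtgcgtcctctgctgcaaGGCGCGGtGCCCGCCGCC
Atp5d: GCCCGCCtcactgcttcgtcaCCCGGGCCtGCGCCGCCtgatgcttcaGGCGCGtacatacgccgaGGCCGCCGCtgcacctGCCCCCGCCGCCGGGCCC
Cox6c: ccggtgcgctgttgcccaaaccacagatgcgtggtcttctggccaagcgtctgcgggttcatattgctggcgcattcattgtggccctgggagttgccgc

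**Figure D4:**
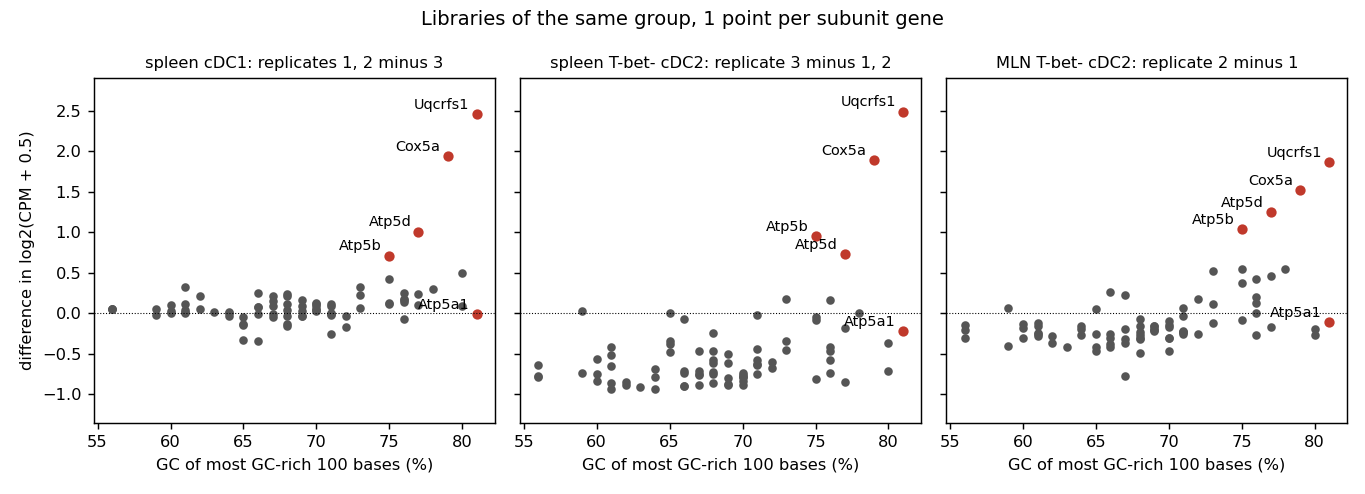
Difference in log2 CPM between libraries of the same group (higher-class minus lower-class in spleen, replicate 2 minus replicate 1 in MLN T-bet- cDC2) against the GC content of each member's most GC-rich 100-base transcript window. Class was set by this GC content over all genes, so the upward trend is no separate result; Uqcrfs1 lies highest and Cox5a next to it in all 3 panels.

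Related gene lists, chosen from the same pathway, placed these values in context. The mitochondrially encoded subunits were not called in any comparison. In MLN, 8 of 12 tested had an unadjusted p below 0.05 by edgeR between T-bet+ and T-bet- cDC2, against 9.44% of all genes. Their median log2 fold change was 0.70, from 2 libraries a group. For example, mt-Co1, the catalytic core of complex IV, was at 1752 and 2335 CPM in T-bet+ and 1007 and 1265 CPM in T-bet- cDC2. Over the same MLN libraries the nuclear members had a median of 0.13. In spleen, 0 of the 12 mitochondrially encoded subunits had an unadjusted p below 0.05 by edgeR between the cDC2 subsets. Their median there was 0.05.

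Among 20 genes of the TCA cycle and pyruvate entry, 1 (5.0%, against 5.38% of all genes) was called between the spleen cDC2 subsets: Mdh2, the mitochondrial malate dehydrogenase, at 2558, 2775 and 2515 CPM in T-bet+ and 684.8, 1292 and 562.2 CPM in T-bet- cDC2, with no overlap (log2 fold change 1.63, SE 0.29, edgeR adjusted p = 0.0118). Over cDC1, Mdh2 was higher in T-bet+ cDC2 of spleen (2.52, SE 0.30, edgeR adjusted p = 0.000352) and MLN (2.12, SE 0.37, edgeR adjusted p = 0.0164). In spleen T-bet+ cDC2 against cDC1, where 18.2% of all genes were called, none of the 3 lists that follow had a larger share of calls. Of 47 assembly factors and mobile carriers tested, 1 was called higher and 3 lower (8.51%), including Coa5, a complex IV assembly factor (-1.95, SE 0.31, edgeR adjusted p = 0.00205), and Cycs, the electron carrier cytochrome c (-0.98, SE 0.24, edgeR adjusted p = 0.0188). Of 77 mitochondrial ribosomal proteins, 1 was higher and 4 lower (6.49%). Of 18 regulators of mitochondrial biogenesis tested, 3 were called higher (16.7%), including Myc, at 45.13, 48 and 42.07 CPM against 20.74, 18.11 and 29.55 CPM (0.99, SE 0.24, edgeR adjusted p = 0.0168). These regulators did have a larger share than all genes in spleen T-bet- cDC2 against cDC1 (4 of 18, 22.2% against 15.9%). The same held in MLN T-bet+ cDC2 against cDC1 (2 of 18, 11.1% against 6.22%). Their share was 5.56% against 5.38% between the spleen cDC2 subsets and 5.56% against 11.7% for cDC1 between tissues. No regulator was called in the remaining comparisons.

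ATAC-seq gave the accessibility of subunit promoters in spleen. Within 1000 bases of an annotated start, 156 summit windows of 150 bases lay at 35 of the 81 members, and Cox6b2, Atp5sl, Cox5a and Atp5b had none. Among genes with a mean over 1000 RNA counts, 30 of 63 members had such a window, against 2288 of 4021 protein-coding genes. Many well-expressed genes thus had no window, and its absence cannot be read as a closed promoter. The values below cover only the 35 members. A window was called at an adjusted p below 0.01 and a log2 fold change above 0.5 in size. Between T-bet+ and T-bet- cDC2, 1 of the 156 windows was called, 0.641% against 6.28% of all windows. Against cDC1, 21 windows were called in T-bet+ cDC2 (19 higher and 2 lower, 13.5% against 23.0%) and 10 in T-bet- cDC2 (all higher, 6.41% against 17.9%). Over all windows, 18359 were called higher and 19957 lower in T-bet+ cDC2, and 12191 and 17582 in T-bet- cDC2. These are not limited to promoters, and the share for promoters of other genes is not given here. Summed member windows held 2216 and 2034 CPM in cDC1 and 2552 to 2825 CPM in cDC2s. The medians over all windows were 2.732 and 2.873 CPM in cDC1 and 2.393 to 2.531 CPM in cDC2s. Both comparisons share the cDC1 libraries, and 6 of the 25 windows called in either were called in both.

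Both lower windows lay inside the transcribed part of their genes. At Uqcrfs1, 754 bases past the start, the window held 1.523 and 3.973 CPM in T-bet+ cDC2 and 9.266 and 9.403 CPM in cDC1 (log2 fold change -1.75, SE 0.33, edgeR adjusted p = 1.41e-05). At Atp5g3, 298 bases past the start, it held 11.2 and 13.28 CPM against 26.61 and 23.38 CPM (-1.03, SE 0.21, edgeR adjusted p = 4.9e-05). Among higher windows, the one at Cox7c, a small complex IV subunit, held 149.6 and 154.6 CPM in T-bet+ cDC2, 165.6 and 148.7 CPM in T-bet- cDC2 and 102.3 and 84.76 CPM in cDC1, with both cDC2 subsets above cDC1 (0.70 and 0.75, edgeR adjusted p = 1.48e-05 and 6.52e-06). Without cDC1 replicate 2 the counts of called windows were 4 and 2.

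**Figure D5:**
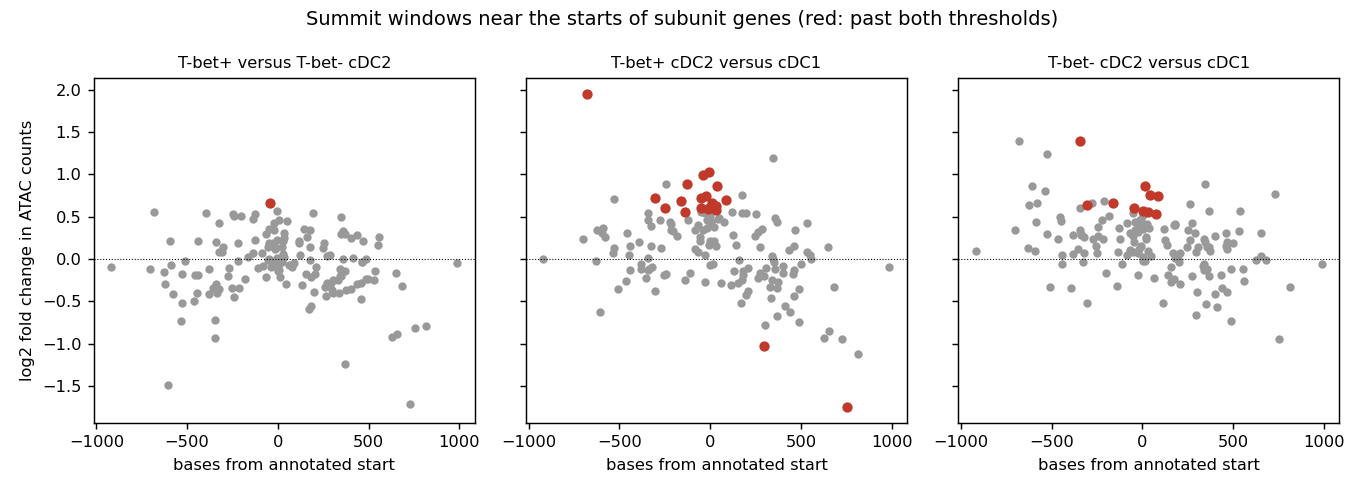
Log2 fold change of ATAC counts in 156 summit windows against their distance from the annotated start of a member gene, in 3 spleen comparisons; red points passed both thresholds. In both comparisons with cDC1 most red points lie above 0 and within 250 bases of the start.

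The members' promoters shared features that the choice by name did not use. RefSeq promoters (GRCm38.p6, 250 bases before to 50 after the start) matched 64 members, with a median GC content of 57.33% against 52.67% over 27025 promoters. Exact motif letters were searched on both strands. The NRF1 motif GCATGCGC, bound by a known activator of respiratory genes, was in 10 of 64 (15.62%) against 2.805% of all promoters, the YY1 motif AAGATGGCG in 6 (9.375% against 1.495%), and the ERR motif TCAAGGTCA in 2 (3.125% against 0.407%). The Ets or GABP motif CCGGAAGT was in 5 (7.812% against 4.0%), the CREB motif TGACGTCA in 4 (6.25% against 1.876%), the E-box CACGTG in 5 (7.812% against 7.241%) and the Sp1 motif GGGCGGGGC in 7 (10.94% against 11.36%). TATAAA was searched only on the gene's own strand in the 50 bases before the start. It was in none of the 64, against 2.883% of all promoters. A start of another gene on the opposite strand lay within 1000 bases for 24 of 80 members (30.0%), against 7.94% of 21951 protein-coding genes, so that windows there lie near both starts.

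Promoters of 4 members are shown from 200 bases before the start to 25 after it, with motif letters in capitals: Cox6b2 for its difference between subsets (chr7:4753070-4753294), Uqcrfs1 for its spread (chr13:30545292-30545516), and Uqcr11 (chr10:80406797-80407021) and Cox6a1 (chr5:115348934-115349158) for the NRF1 motif. All 4 are on the minus strand of GRCm38.p6 and were read from RefSeq. The capitals mark Sp1 in Cox6b2, CREB in Uqcrfs1, Ets or GABP and then NRF1 in Uqcr11, and NRF1 on both strands in Cox6a1.
Cox6b2: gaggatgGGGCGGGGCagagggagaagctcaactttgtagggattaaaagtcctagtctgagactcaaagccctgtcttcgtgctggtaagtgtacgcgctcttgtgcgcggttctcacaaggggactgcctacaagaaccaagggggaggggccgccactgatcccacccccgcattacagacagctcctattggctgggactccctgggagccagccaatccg
Uqcrfs1: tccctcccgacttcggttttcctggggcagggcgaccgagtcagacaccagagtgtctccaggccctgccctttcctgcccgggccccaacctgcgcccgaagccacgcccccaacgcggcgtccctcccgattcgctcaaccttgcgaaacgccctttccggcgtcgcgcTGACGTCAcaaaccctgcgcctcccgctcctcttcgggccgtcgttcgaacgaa
Uqcr11: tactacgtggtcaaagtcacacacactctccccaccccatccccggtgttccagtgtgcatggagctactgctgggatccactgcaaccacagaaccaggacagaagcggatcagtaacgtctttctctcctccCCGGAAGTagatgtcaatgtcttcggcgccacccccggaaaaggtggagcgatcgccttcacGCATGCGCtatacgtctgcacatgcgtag
Cox6a1: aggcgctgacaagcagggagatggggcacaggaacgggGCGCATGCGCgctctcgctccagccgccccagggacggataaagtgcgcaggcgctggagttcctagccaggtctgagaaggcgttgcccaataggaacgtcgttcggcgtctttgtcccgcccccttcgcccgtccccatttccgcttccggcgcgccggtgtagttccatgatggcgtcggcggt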

How the data were processed

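Bulk RNA-seq (16 libraries) and ATAC-seq (6 libraries) of sorted mouse DCs were analysed from tables deposited by the authors. Counts, as deposited by the authors, are raw reads per gene: reads were aligned to mm10 with HISAT2 2.1.0, and uniquely aligned reads were counted on GENCODE genes with Rsubread. ATAC-seq reads had been mapped by the authors with Bowtie2 2.2.5 and shifted for the transposase, peaks were called by MACS2 2.1.1.20160309 over the pooled replicates, and counts were deposited in 150-base summit windows and in peaks. The -log10 p values of the summit list, as deposited by the authors, come from MACS2 and were not tested here. Tool versions follow the submitters' processing notes. The labels give RFP+ cells as T-bet+; 1 sentence of the methods gives the reverse, and the labels were followed.

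The members and gene lists were chosen with earlier results of these data known. Groups were taken from the sample labels. Counts were fitted with edgeR 4.0.16 (TMM, low-count filter, quasi-likelihood test, Benjamini-Hochberg adjustment over all genes; R 4.3.3) separately in spleen (14377 genes), MLN (15298 genes) and all 16 libraries for tissue comparisons (16795 genes). RNA calls required an adjusted p below 0.05, and ATAC calls below 0.01 with a log2 fold change over 0.5 in size. DESeq2 1.42.0, other scalings, no filter, GC and length offsets, a library class term, a replicate block and leaving out each library were alternatives. Scripts were tested on simulated data. Library class used the GC content of the richest 100-base window, chosen after seeing the data, since whole-transcript GC gave another division. Genes were named by a rule covering core subunits, isoforms, members with the smallest p, level extremes, members with called windows and members left out by the count rule. Same-numbered libraries did not deviate together in spleen (correlations from -0.72 to 0.40, against -0.49 to 0.81 for different numbers). In MLN the correlations were -0.15 to 0.64 by label and -0.01 to 0.64 by the number in the library name. Those for different numbers in MLN were -0.64 to 0.43. These values do not settle whether MLN libraries were paired, and the fits given above used no pairing. Values of 1 complex I member, which counts over all members include, are not reported here. Of 81 members, 80 matched GENCODE M21 by symbol. P-values measure the spread between libraries of pooled mice.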

Additional observations from a re-analysis of the deposited data

How the results depend on the processing

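Under the alternatives, 208 counts of called members or windows stayed within 1.5 times the count given above and 64 did not. The cause of those moves was not tested. Most counts given above are 0, and a count that stayed at 0 is among the 208, so this tally does not measure stability. The counts that follow are not set beside shares of all genes under the same settings. Higher-class libraries alone leave only replicate 3 of spleen T-bet- cDC2. The number of members called was, for spleen T-bet+ against T-bet- cDC2 (0 as reported), 3 with no filter and 0 to 2 when a library was left out. For spleen T-bet+ cDC2 against cDC1 (2 as reported) it was 1 with DESeq2 size factors, no filter, or the class term on whole-transcript GC, 11 with GC and length offsets, 13 with offsets on the GC-rich window and 1 to 6 when a library was left out. For spleen T-bet- cDC2 against cDC1 (2 as reported) it was 4 with no filter, 7 with GC and length offsets, 13 with the GC-rich window offsets, 0 with higher-class libraries alone and 2 to 6 when a library was left out. The 6 in both cases came without spleen T-bet- cDC2 replicate 3. In MLN, T-bet+ cDC2 against cDC1 (0) gave 3 with either kind of offsets, and T-bet- cDC2 against cDC1 (0) gave 1 with DESeq2, no filter or the GC-rich window offsets and 0 to 1 when a library was left out, the 1 without cDC1 replicate 1. Between tissues (0 each), cDC1 gave 2 with DESeq2, 1 with no filter, 3 with the GC-rich window offsets, 1 with higher-class spleen libraries alone and 0 to 5 when a library was left out, the 5 without MLN cDC1 replicate 1. T-bet+ cDC2 gave 2, 3, 1 and 2 under those settings and 0 to 1 when a library was left out, and T-bet- cDC2 gave 4, 1, 2 and 1, 1 with the class term on the GC-rich window, and 0 to 1 when a library was left out. Windows called between cDC2 subsets (1) numbered 0 with DESeq2, library size alone or whole peaks and 0 to 6 when a library was left out. Against cDC1, T-bet+ windows (21) numbered 12, 11 and 6 under those settings and 4 to 29, and T-bet- windows (10) numbered 5 with whole peaks and 2 to 15, the lowest without cDC1 replicate 2.

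Replicate numbers are shared by the labels, and same-numbered libraries did not deviate together in spleen. In MLN, by the number in the library name, the correlations were -0.01 to 0.64, against -0.64 to 0.43 for different numbers. With a replicate block, spleen T-bet+ cDC2 against cDC1 gave 1 call, T-bet- cDC2 between tissues 1, and with GC and length offsets beside the block the spleen comparisons with cDC1 gave 7 and 4. With the number in the library name as the block, MLN T-bet- cDC2 against cDC1 gave 2 members, Atp5b and Cox6b2 (2.67, edgeR adjusted p = 0.0124), and 2477 genes in all against 885 without it, and MLN T-bet+ cDC2 against cDC1 gave 2440 genes against 952.

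In 3 cases a named gene changed direction: Uqcrfs1 between tissues went to -0.18 in cDC1 and -0.05 in T-bet+ cDC2 with the class term on the GC-rich window, and Atp5a1 in T-bet+ cDC2 to -0.5 with the GC-rich window offsets. A class term could not be fitted within MLN, where all libraries were of 1 class. With 2 or 3 libraries a group, the median half-width of a member's 95% interval was 0.57 to 0.90 log2 units, before adjustment over genes. This width is no limit of detection. Smaller differences could be missed, and larger ones also did not pass, such as Cox6b2 at 2.15 in MLN T-bet- cDC2 against cDC1.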

Other observations

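The 3 genes for the c subunit of the ATP synthase rotor contributed in unequal shares to cDC1s and cDC2s. These shares were picked out after their values were seen and were not tested. Per length, Atp5g2 gave 12.64% to 13.66% of the c subunit signal in spleen cDC1 and 13.17% to 15.05% in MLN cDC1. In cDC2s it gave 17.84% to 21.43% in spleen and 18.07% to 21.02% in MLN, so that no cDC2 library overlapped a cDC1 library in either tissue. The Atp5g2 transcript alone overlapped between cDC2s and cDC1s in each of the 4 comparisons, with log2 fold changes from -0.03 to 0.35, while Atp5g3 gave -0.40 to -0.59, none of which passed (edgeR adjusted p from 0.197 to 0.968 over both genes).

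Cox6a2, the muscle isoform of cytochrome c oxidase subunit VIa, was near the count limit in every library and passed no low-count filter within a tissue. It was at 0.4335, 0.8224 and 0.3021 CPM in spleen T-bet- cDC2 and at 0.9418 and 0.3444 CPM in MLN T-bet- cDC2. The other 11 libraries held at most 0.2314 CPM.

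Among regulators of mitochondrial biogenesis, Ppargc1b, a coactivator of respiratory genes, was listed at 0 in all 3 spleen T-bet+ cDC2 libraries and at 7.418, 1.593 and 3.361 CPM in spleen T-bet- cDC2. Its relative Ppargc1a was at 1.664, 0.9 and 3.488 CPM in spleen T-bet+ cDC2, 1.156, 1.439 and 0.7931 CPM in T-bet- cDC2 and at most 0.1646 CPM in cDC1.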
